A study of Homo sapiens with 10 samples.

Results

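Intronic peaks of lncRNA genes were taken from the single list of poly(A) 3′-seq peaks deposited for IMR-32 cells, a MYCN-amplified human neuroblastoma line. A peak was counted when its summit lay in a GENCODE 44 lncRNA gene but in no exon of any gene and in no protein-coding gene body. Its summit also had to lie outside the window from 200 bp before to 600 bp past every annotated transcript end, and not within 3000 bp upstream of a protein-coding start. This rule, which uses positions and no measured value, found 8100 of the 178837 listed peaks. For comparison, 90164 intronic peaks of protein-coding genes met the same exclusions, 2968 peaks lay in the end windows of lncRNA transcripts and outside protein-coding genes (terminal peaks), and 5106 lay more than 10000 bp from any gene.

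The list pools 10 libraries. Of these, 4 came from cells with a short hairpin RNA against CDK12 (sh22 or sh98, 2 libraries each), 4 from cells with one against CDK13 (sh701 or sh704, 2 libraries each) and 2 from cells with a hairpin against GFP as the control. All cells, controls included, were transduced with pLKO.1 lentivirus and selected with puromycin. CDK12 and CDK13 are kinases of the RNA polymerase II tail. Because peaks were called once on the merged reads, no peak has a value per library, per hairpin or per batch, and knockdown cannot be compared with control.

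Long noncoding RNAs are transcribed by RNA polymerase II and, like messenger RNAs, are mostly spliced, cleaved and polyadenylated. Cleavage usually follows an AATAAA or ATTAAA hexamer a short way upstream of the cut, and cleavage inside an intron gives a truncated transcript. Oligo(dT) primers can also anneal to adenine stretches within an unspliced RNA, and a genomic run of adenines just past a read's start is the usual mark of such priming. Many lncRNA genes are long, host microRNAs or small nucleolar RNAs in their introns, or start beside a protein-coding gene on the other strand.

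In each peak with host genes on 1 strand only, the 3′ edge of the interval was read on that strand. An A-rich edge has at least 7 A in the next 10 bases, and a core signal is AATAAA or ATTAAA starting 10 to 40 bp upstream. The following 100-base stretches of GRCh38, written 5′ to 3′ on the host strand, run from 80 bases before the edge to 20 past it. They are among the peaks with the most reads in each sequence class, 1 per host gene, leaving out chromosomes 8 and Y. Capitals mark the core hexamer, where there is one, and the 10 bases past the edge. The first set is A-poor with a core signal.

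LINC01798 (chr2:66705182-66705281, plus strand): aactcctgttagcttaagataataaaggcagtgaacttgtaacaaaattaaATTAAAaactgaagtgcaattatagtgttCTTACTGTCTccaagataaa
ENSG00000228505 (chr2:14619773-14619872, plus strand): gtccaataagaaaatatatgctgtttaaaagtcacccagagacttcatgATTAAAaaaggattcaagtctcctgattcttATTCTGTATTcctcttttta
ENSG00000261474 (chr16:31450644-31450743, minus strand): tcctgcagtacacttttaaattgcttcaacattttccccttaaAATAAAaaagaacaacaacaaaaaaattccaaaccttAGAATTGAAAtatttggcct
ENSG00000245482 (chr12:34035127-34035226, minus strand): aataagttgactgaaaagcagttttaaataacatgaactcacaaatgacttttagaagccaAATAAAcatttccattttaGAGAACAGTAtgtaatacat

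In these 4 peaks the hexamer started 19 to 37 bp before the edge, and 1 to 6 of the next 10 bases were A. The summit of the LINC01798 peak was covered by 53 reads, 9.29-fold over local background, and that of the ENSG00000261474 peak by 41 reads, 16.2-fold over background. The second set is A-rich without a core signal.

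LINC01829 (chr2:67319608-67319707, minus strand): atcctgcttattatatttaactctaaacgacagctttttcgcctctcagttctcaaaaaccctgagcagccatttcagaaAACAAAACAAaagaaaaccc
ENSG00000290846 (chr2:89565780-89565879, minus strand): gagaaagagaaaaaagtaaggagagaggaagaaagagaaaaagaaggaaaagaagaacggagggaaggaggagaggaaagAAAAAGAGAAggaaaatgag
ENSG00000235419 (chr2:230571856-230571955, minus strand): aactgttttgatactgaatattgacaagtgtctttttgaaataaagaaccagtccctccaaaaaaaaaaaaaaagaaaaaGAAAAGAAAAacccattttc
ENSG00000228505 (chr2:14620506-14620605, plus strand): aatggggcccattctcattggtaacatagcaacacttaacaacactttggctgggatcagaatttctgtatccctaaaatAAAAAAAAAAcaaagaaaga

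The edge of these peaks runs into 8 to 10 adenines in 10 bases. The ENSG00000290846 stretch is purine-rich throughout, with 59 A and 2 T in 100 bases. The ENSG00000235419 stretch holds an AATAAA that starts 41 bp upstream, 1 bp outside the limit set for a core signal. The third set is A-poor with no core signal.

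LINC01798 (chr2:66574679-66574778, plus strand): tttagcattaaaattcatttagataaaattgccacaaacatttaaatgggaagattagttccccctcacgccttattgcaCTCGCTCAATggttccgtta
LINC00486 (chr2:32866937-32867036, plus strand): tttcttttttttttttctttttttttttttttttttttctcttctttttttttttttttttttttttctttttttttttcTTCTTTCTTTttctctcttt
ENSG00000287291 (chr2:14870643-14870742, minus strand): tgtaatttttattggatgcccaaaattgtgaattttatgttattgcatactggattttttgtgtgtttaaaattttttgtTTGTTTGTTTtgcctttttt

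The LINC00486 stretch holds 88 T and 0 A on the host strand. Read on the opposite strand from the other edge, 9 of the next 10 bases of that peak are A, so the same peak is A-rich on the strand its host gene does not use. It had the highest fold over background of all 8100 peaks (39.0-fold, 79 reads). The ENSG00000287291 stretch is likewise T-rich, with 57 T and 19 A, whereas the LINC01798 stretch is balanced at 31 A and 33 T.

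Of the 8100 peaks, 7492 had a strand. Among them 56.4% (95% Wilson interval 55.3 to 57.5%) had an A-rich edge, near the 57.5% of all chromosomal peaks with a strand. Intronic peaks of protein-coding genes were A-rich more often, at 72.4%, a difference of -16.0 percentage points (95% Newcombe interval -17.1 to -14.8). It was -21.0 points (-23.4 to -18.6) with 1 peak per gene in both classes. The difference was 0.970 points, in the reverse direction, when bases were counted from the summit in place of the edge. It was -8.78 points (-10.3 to -7.29) between lncRNA hosts with a terminal peak and protein-coding genes with any listed peak in an end window. Terminal peaks of lncRNA genes were A-rich in 21.4%, 35.0 points below the intronic peaks (33.1 to 36.8). The study's methods use another mark, a stretch of 25 A with at most 3 mismatches within 50 bp downstream. It stood past 8.32% of the intronic lncRNA edges, 8.94% of the protein-coding intronic ones and 2.56% of the terminal ones. Between the intronic classes that difference was -0.626 points, with an interval that spans 0 (-1.26 to 0.0478). These intervals cover counting error only, since peaks of 1 gene or region are not independent and the list has no replicates.

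A core signal stood before 19.2% of the edges (18.4 to 20.2%), against 21.8% of all chromosomal peaks, 13.4% in protein-coding introns and 53.4% at lncRNA ends. The class A-poor with a core signal, the most common one at lncRNA ends, held 944 peaks, or 12.6% (11.9 to 13.4%), against 16.5% of all chromosomal peaks. It held 6.99% of the intronic peaks of protein-coding genes, 5.61 points fewer (4.86 to 6.40), and 49.4% of terminal peaks. Within it the hexamer was AATAAA in 79.6% of the intronic lncRNA peaks and 77.8% of the terminal peaks, and its median start was 23 bp and 24 bp upstream. In protein-coding introns the same values were 76.3% and 23 bp. A start could lie only in the short window that defines a core signal, which by itself holds the medians close together. No likeness in placing between intronic and annotated ends is therefore read from them. Any of the 12 hexamers of the study's methods was found within 100 bp upstream of 54.0% of the intronic lncRNA edges, 49.5% of the protein-coding intronic edges and 80.6% of the terminal edges.

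**Figure D1:**
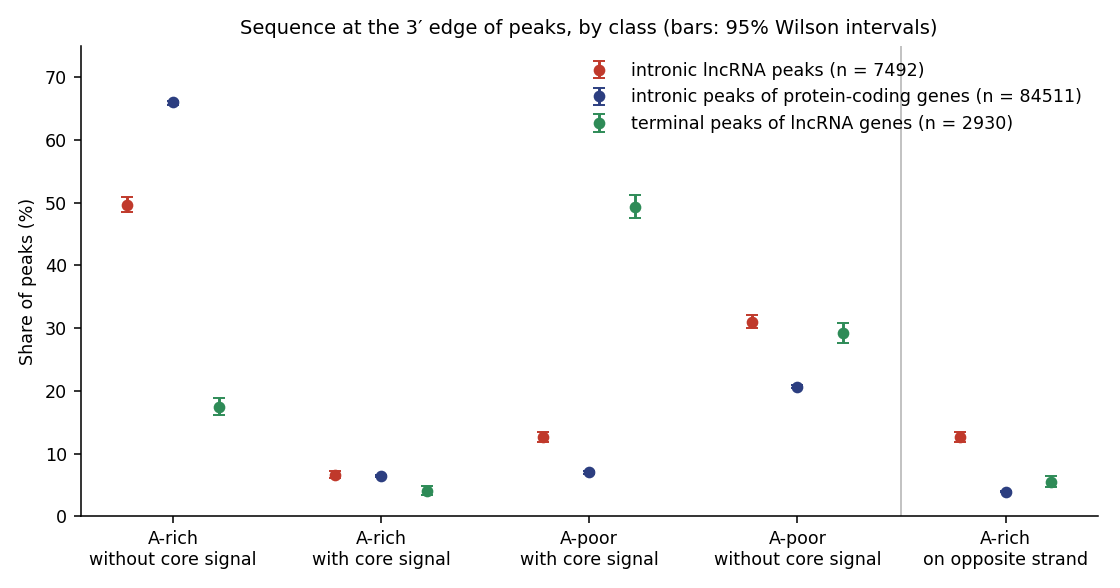
Share of peaks (%) in each of 4 exclusive sequence classes at the 3′ edge, and share A-rich when read on the opposite strand, for intronic lncRNA peaks, intronic peaks of protein-coding genes and terminal lncRNA peaks; points are shares and bars 95% Wilson intervals. Intronic lncRNA peaks sit between the other classes for A-rich without a core signal (49.7%) and for A-poor with one (12.6%), and above both when A-rich on the opposite strand (12.6%).

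Base by base, adenine had risen to 49.0% of the edges 1 base before the last base of the interval. It dipped to 36.9% at the last base, a dip that both other classes shared, and was 61.4% at the next base. Adenine reached 65.9% at base 3 and was back at 34.6% at base 30. In terminal peaks it reached 49.9% at the first base past the edge and was already 34.0% at base 10. Terminal peaks had their own rise upstream, to 48.2% A at 18 bases before the edge, where a polyadenylation signal sits. In the intronic lncRNA peaks adenine was lower, at 38.9% at the same base and 39.7% at 17 bases before the edge.

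**Figure D2:**
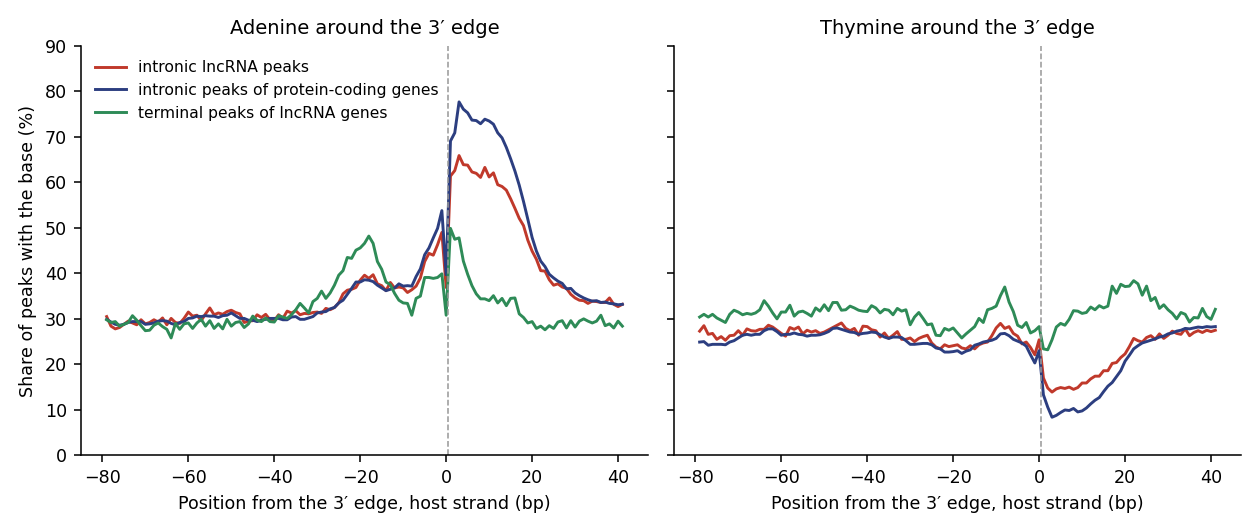
Share of peaks (%) with adenine (left) or thymine (right) at each position from the 3′ edge on the host strand (bp; dashed line, end of the interval) for the 3 classes. Adenine in intronic lncRNA peaks climbs to 65.9% just past the edge, below protein-coding introns and above terminal peaks, and thymine falls to 13.9% at the same base.

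The remaining 31.0% (2323 peaks) were A-poor with no core signal, against 20.6% in protein-coding introns, 10.4 points more (9.29 to 11.4). Read on the opposite strand, 860 of these peaks were A-rich. In all, 12.6% of the intronic lncRNA peaks (11.9 to 13.4%) were A-rich on the opposite strand, against 4.80% of all chromosomal peaks, 3.93% in protein-coding introns and 5.49% at lncRNA ends. The list has no strand, so reads from the host gene and reads from a transcript across it cannot be told apart. When an A-rich edge on either strand was counted, the share was 68.2% of all 8100 peaks, 75.2% in protein-coding introns and 70.5% in intergenic peaks.

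Alu elements, short repeats that descend from the 7SL RNA and end in an adenine tail, can be found by their likeness to RN7SL1. A match in the host orientation lay beside 22.5% of the intronic lncRNA peaks, against 29.4% in protein-coding introns and 10.8% at lncRNA ends. Of the 1684 matched peaks, 90.1% were A-rich on the host strand. Of the 465 peaks with a match in the opposite orientation, 8.60% were A-rich on the host strand and 74.0% on the other. Without any match, 49.9% of 5343 peaks were A-rich.

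The peaks were low. The pileup at the summit, that is the number of extended reads covering it in the pooled data, had a median of 8 reads and quartiles of 6 and 11. The same quartiles were found in protein-coding introns, terminal peaks had a median of 10 and intergenic peaks of 7. In 225 peaks the −log10 q-value was 20 or more (2.78%, 2.44 to 3.16%), against 7.19% of all chromosomal peaks, 1.78% in protein-coding introns and 10.0% at lncRNA ends. The sequence at the edge changed with the height. From pileups of 3 to 6 reads up to pileups of 25 or more, the A-rich share went from 59% of 2653 peaks to 34.0% of 156, and the A-poor share with a core signal from 10.5% to 24.4% (intervals 9.41 to 11.7% and 18.3 to 31.7%). The A-poor share with no core signal was also higher in the highest peaks, at 41.7% (34.2 to 49.5%) against 30.5% (28.8 to 32.3%). The 15 highest peaks were 113 to 674 bp wide, against a median of 104 bp, so an edge can lie far from its summit. The part of peak width in these shares was not tested.

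The 8100 peaks fell in 2125 host genes, taking the longest lncRNA gene at each summit, and 836 peaks lay in more than 1 lncRNA gene. A single peak was found in 969 hosts, the median was 2 and the highest 147. The 10 hosts with most peaks held 750, or 9.26%. Host genes were long, with a median over peaks of 117.0 kb (quartiles 48.9 and 280.4 kb), and the median peak lay 36.4 kb from the host start and 9.14 kb past the preceding splice site. Along the host, 12.5% of the peaks lay in the first 10% of the gene and 5.41% in the last 10%, and 58.6% lay in the first 50% of the gene. These shares were not set against the eligible intron in each part, from which exons and transcript end windows are removed.

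Relative to the intron sequence that could hold a peak, intronic lncRNA peaks were sparse. There were 20.4 per Mb over 397.2 Mb of eligible lncRNA intron and 86.1 per Mb over 1046.8 Mb of eligible protein-coding intron, a ratio of 0.237. Of 10376 lncRNA genes with eligible intron, 23.3% (22.5 to 24.1%) held at least 1 peak. That share went with gene length, from 3.11% of genes under 5 kb to 70.0% of those over 300 kb. The density went the other way among longer genes, with 25.2 peaks per Mb of eligible intron below 5 kb, 31.3 from 5 to 20 kb, 19.2 from 100 to 300 kb and 13.3 over 300 kb, counting a peak in each lncRNA gene that covers it.

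It also went with a peak at the gene's own end. Among 1271 lncRNA genes with a terminal peak, 61.8% held an intronic peak, against 17.9% of the 9105 without, 43.9 points more (41.1 to 46.7). The density was 72.4 against 11.2 peaks per Mb. The gap was seen at every length: 10.9% against 2.51% below 5 kb, 75.2% against 22.8% from 20 to 50 kb, and 93.3% against 64.8% over 300 kb. Genes whose highest terminal peak had up to 9 reads held 48.6 intronic peaks per Mb, those with 10 to 19 reads 88.9 and those with 20 or more 102.1. Terminal pileup is used here as a rough measure of how much polyadenylated RNA the gene makes. A terminal peak has no strand and counted for each lncRNA gene whose end window held it. Windows inside protein-coding genes or their end windows could not hold one, so genes ending there can lack it for that reason.

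The sequence at the edge differed between these hosts as well. In the 709 hosts with a terminal peak, 64.3% of 4105 peaks were A-rich on the host strand and 5.60% on the opposite strand. In the 1416 hosts without one, 46.9% of 3387 peaks were A-rich on the host strand and 21.1% on the opposite strand. The differences were 17.4 points (15.2 to 19.6) and -15.5 points (-17.1 to -14.0). The A-poor share with a core signal was 13.1% and 12%, a difference of 1.07 points whose interval spans 0 (-0.448 to 2.56).

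Neighboring protein-coding genes moved with the same measure. Peaks within 10 kb past the end of a protein-coding gene on the strand opposite to the host (525 peaks) were A-rich in 27.6% on the host strand and in 31.2% on the opposite strand, 16.1 to 24.2 points above all other peaks. Past the end of a protein-coding gene on the host's own strand (167 peaks) the opposite-strand share was 4.19%. Peaks within 10 kb upstream of the start of an opposite-strand gene, where divergent lncRNAs lie (564 peaks), were A-poor with a core signal in 20.6%, 8.62 points above the rest (5.39 to 12.2). The share was alike past the end of a same-strand gene, at 21.6%, 9.16 points above the rest (3.55 to 16.0), and it was 17.2% of 93 peaks before the start of a same-strand gene, 4.66 points above with an interval that spans 0 (-1.71 to 13.6). The part of transcription from these neighbors in the peaks was not tested.

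The sequence also differed with the position in the host. Peaks within 2 kb of the host start were A-rich in 42.1% of 242 and those beyond 200 kb in 66.2% of 893, while the A-poor share with a core signal was 15.3% and 6.49%. Peaks 601 bp to 5 kb past an annotated end of another transcript of their host numbered 958, and 19.3% were A-poor with a core signal, 7.62 points above the rest (5.03 to 10.5). At the limit of the rule, 129 peaks at 601 to 800 bp past a transcript end had a median pileup of 9 reads and 20.9% A-poor with a core signal, and 132 excluded peaks at 401 to 600 bp had 9 reads and 22.7%. Between 3001 and 4000 bp upstream of a protein-coding start lay 121 of the peaks (45% A-rich), and 130 excluded peaks lay at 2001 to 3000 bp (51.9% A-rich). Here the A-poor share with a core signal differed across the limit, at 29.2% of 120 peaks against 11.6% of 129 excluded ones.

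The host with most peaks was ENSG00000229618, an unnamed lncRNA gene of 1025.8 kb at chr7:12726152-13751920 on the plus strand, next to ETV1. It held 147 peaks with pileups of 4 to 24 reads (median 10), and 110 of the 145 with a strand were A-rich. None lay in the first 210 kb of the annotated gene, 61 lay between 210 and 630 kb and 86 beyond, the first at 215.3 kb from the start. MIR924HG, a microRNA host gene of 593.4 kb at chr18:39206917-39800322, held 88 peaks from 7.26 to 563.7 kb past its start with pileups of 3 to 19, and 65 of 87 were A-rich.

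ENSG00000225689, at chrX:128027322-129326707 and 1299.4 kb long, was the only one of the 16 hosts with most peaks (the 15th place is shared) that had no terminal peak. Its 69 peaks lay between 2.88 and 735.5 kb from the start, 51 of them A-rich and 1 A-rich on the opposite strand. LINC01473 (56 peaks), LINC03000 (53 peaks), UFL1-AS1 (39 peaks) and LINC03051 (57 peaks) were similar in height, with medians of 7 reads each, and 71.1 to 85.7% of their peaks were A-rich. ENSG00000226965 held 62 peaks (median 8 reads, 75.8% A-rich) and ENSG00000286540 held 42 (median 8.50, 78.6% A-rich), all of the latter in its 1 intron. LINC02268 stood apart with a median of 16 reads, 11 of 41 peaks A-poor with a core signal and 18 A-rich.

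PVT1, the MYC-linked oncogenic lncRNA gene of chromosome 8, held 53 peaks from 4.84 to 362.3 kb past its start. Their pileups ran from 5 to 39 reads (median 11), 43 of 52 were A-rich and 4 were A-poor with a core signal. The highest, 39 reads at 11.9-fold over background, lay 103.3 kb in, and a second of 35 reads and 23.7-fold lay 362.3 kb in, near the end of the gene. Both were A-rich.

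Many of the highest peaks lay in a few megabases of chromosome 2. Among 1584 bins of 1 Mb with at least 50 peaks of any class, the median background at the summits was 0.530 reads, and in 4 bins it was 1.5 or more: megabases 14, 15, 66 and 67 of chromosome 2, with medians of 1.55 to 3.16. This limit was chosen after the values were seen. IMR-32 cells are known for amplified segments of the short arm of chromosome 2, MYCN included. Copy number was not measured here, and its part in these values was not tested.

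The 4 bins held 249 of the 8100 peaks, in 12 hosts, with a median of 18 reads against 8 elsewhere. Protein-coding intronic peaks in the same bins had a median of 17 reads. The bins were picked by the background at peaks of all classes. High pileups there thus follow in part from that choice, in both classes. Of the 15 intronic lncRNA peaks with the highest pileup, 10 lay in these bins, as did 53 of the top 100. Without the 4 bins the A-rich share was 56.7%, the A-poor share with a core signal 12.5% and the median pileup 8.

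LINC01798, at chr2:66574030-66731223 beside the homeobox gene MEIS1, held 46 of them. In its first 10 kb, 7 peaks had 58 to 106 reads over a median background of 25.1, none of them A-rich and none with a core signal. From 10 to 110 kb, 23 peaks had 9 to 35 reads, and 11 were A-rich. From 110 to 160 kb, 16 peaks had 13 to 83 reads over a median background of 3.13, and 4 of the 13 with a strand were A-rich. Its peak of 106 reads lay 0.513 kb from the start, in the first intron, at 4.51-fold over background. That peak was also 0.674 kb past the end of MEIS1, which is on the host's own strand. The peaks of 63 to 89 reads in the first 10 kb lay 1.75 to 6.77 kb from MEIS1. The part of transcription from MEIS1 in these peaks was not tested. LINC01829 (chr2:67123357-67397980, minus strand) held 96 peaks of 7 to 77 reads. Of these, 75 had no strand, because LINC01828 on the plus strand covers 72 of them and another gene 3. ENSG00000287291 held 69 peaks of 7 to 69 reads, of which 35 were A-rich and 12 A-poor with a core signal. In a stretch chosen after the values were seen, 95 to 130 kb from its start, 6 of 11 were A-poor with a core signal and 1 was A-rich. ENSG00000228505, at 13.8 kb, was the densest host of at least 10 kb with at least 5 peaks, with 6 peaks of 25 to 46 reads and a terminal peak of 76.

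**Figure D3:**
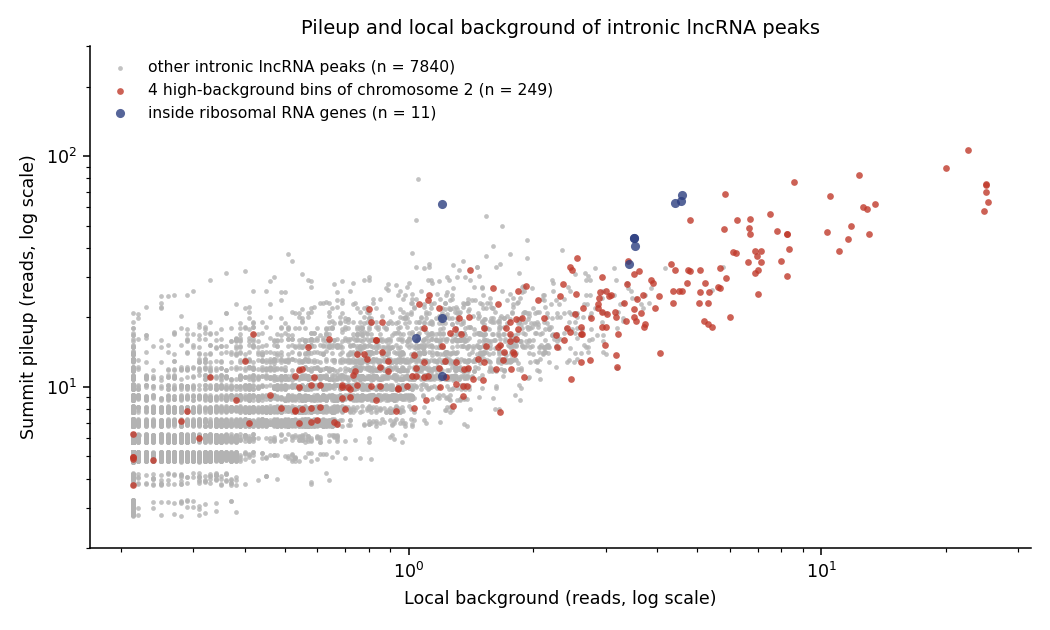
Summit pileup (reads) against local background (reads) of each intronic lncRNA peak, both on log scales; points are shifted slightly in height where counts coincide. The 249 peaks in 4 high-background bins of chromosome 2 hold the highest pileups, up to 106 reads, and 11 peaks inside ribosomal RNA genes have 11 to 68 reads.

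Other high peaks lay where the annotation itself was unusual. ENSG00000280441, a GENCODE lncRNA gene on chromosome 21, held 4 of the 15 highest peaks (62 to 68 reads), and 6 of its 11 peaks lay inside ribosomal RNA genes of the RefSeq annotation. One of them, chr21:8401814-8401980, ended on the last base of RNA28SN3, a copy of the 28S ribosomal RNA gene (62 reads, 28.6-fold). A further 5 peaks of ENSG00000278996 lay in such genes with 20 to 44 reads. Ribosomal genes are repeated, and reads that map to up to 20 places were kept, so these copies are uncertain. RefSeq also placed 489 of the 8100 peaks inside a protein-coding gene and 2195 in no gene.

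Besides ENSG00000228505, LINC01829 and LINC01798, the densest hosts were RP9P, a transcribed pseudogene (10 peaks, 0.379 per kb), ENSG00000227598 (11 peaks, 0.374 per kb), ENSG00000249875 (7 peaks), ENSG00000286850 (8 peaks), LINC00839 (6 peaks) and ENSG00000290993 (5 peaks), with 1 more on chromosome Y. In ENSG00000249875, 1 of 7 peaks was A-rich on the host strand and 4 on the opposite strand. RP9P had the reverse pattern, with 6 of 10 and 0.

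Known lncRNA genes were described by list. The share of genes with a peak went with gene length, and the lists were not matched to other genes by length. In the lists a gene counted only where it was the assigned host. The 23.3% set beside them counts every lncRNA gene that covers a peak, 2415 genes against 2125 assigned hosts. Of 33 neural and neuroblastoma lncRNA genes with eligible intron, 21 held peaks (63.6%, against 23.3% of all eligible lncRNA genes). They held 166 peaks, and 70% of those with a strand were A-rich, against 56.4% of all intronic lncRNA peaks. HAND2-AS1, transcribed from the start of the sympathetic regulator HAND2, held 11 peaks of 5 to 29 reads besides 12 terminal peaks of up to 62. CASC15, a neuroblastoma susceptibility locus of 990.3 kb, held 8. Its highest peak (23 reads, 11.9-fold) lay 492.8 kb in and was A-poor with a core signal. LINC01122 held 39, LINC-PINT 33, BDNF-AS 9, MEG8 and SNHG14 8 each, NEUROG2-AS1 7, LINC00632 6, SOX2-OT 4, MIR124-1HG 2, CRNDE and GATA2-AS1 3 each, and DLX6-AS1, MEG9, MIAT, MYCNOS and PWRN1 1 each. In SOX2-OT, which spans the stem cell factor gene SOX2, a peak of 26 reads and 20.8-fold lay 28.5 kb from the start. No intronic peak was assigned to MEG3, whose locus lies beside MEG8, or to NBAT1, MYCNUT, RMST, LINC00461, PANTR1 or the other 6 genes of the list. A peak in more than 1 lncRNA gene was assigned to the longest, and 7 of the 8 MEG8 peaks lay in more than 1.

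MicroRNA host genes, whose introns or exons hold microRNA hairpins, had peaks in 35 of 70 eligible genes (50%, against 23.3% of all). There were 323 peaks in all with a median of 9 reads. Of those with a strand 71.2% were A-rich (56.4% over all hosts), 3.47% were A-rich on the opposite strand and 7.29% were A-poor with a core signal. By gene symbol alone, the MIR host genes were 15 points more A-rich than all other hosts (8.90 to 20.5). MIR924HG, MIR99AHG (40 peaks), FTX (32 peaks), MIR181A1HG (26 peaks), DLEU1 (18 peaks), DLEU2 (16 peaks) and MIRLET7BHG (14 peaks) held most of them. The neural MIR9-3HG went the other way, with 2 of 8 peaks A-rich and the highest at 24 reads, while all 3 peaks of MIR9-1HG were A-rich and in MIR137HG 6 of 9. MIR17HG, which gives rise to the miR-17 cluster, held 3.

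Small nucleolar RNA host genes are mostly short, and 8 of 16 eligible genes (50%, against 23.3% of all) held 33 peaks. Among the 31 with a strand, 45.2% were A-rich. SNHG16 held 10 (2 A-rich, 4 A-poor with a core signal), SNHG14 and SNHG31 8 each, SNHG26 and SNHG30 2 each and GAS5, SNHG10 and ZFAS1 1 each. The single peak of GAS5, a growth arrest transcript, had 33 reads over a background of 5.78 and was A-poor with a core signal. That of ZFAS1 had 21 reads and neither feature. All 8 peaks of SNHG31 were A-rich, at 5 to 8 reads.

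Nuclear and chromatin-linked lncRNA genes held 173 peaks, and 79.1% of those with a strand were A-rich, again against 56.4% over all hosts. The peaks lay in 9 of 19 eligible genes (47.4%, against 23.3% of all). Besides PVT1 these were FTX, a regulator of the X-inactivation center (17 of 21 A-rich), NUTM2A-AS1 (17 of 20), LINC00511 (15 of 19), FIRRE (10 of 12), DLEU1, DLEU2, GAS5 and PCAT1. H19, HOTAIR, HOTTIP, DANCR, JPX and CYTOR were among the 10 with eligible intron and no assigned peak. A shorter gene can still hold a peak that was assigned to a longer one. In FTX, 11 of the 32 peaks lay in more than 1 lncRNA gene. Divergent transcripts, named -DT, held 533 peaks in 143 hosts, and 17.7% were A-poor with a core signal, 5.48 points above all other hosts (2.32 to 9.09). Antisense genes (-AS, 1140 peaks in 283 hosts) and LINC genes (1610 peaks in 385 hosts) were A-rich in 57.1% and 57.5%, and genes without a symbol (3558 peaks in 1083 hosts) in 52.5%. The intervals of the difference from all other hosts spanned 0 for the -AS and LINC genes and ran from -9.36 to -4.85 points for those without a symbol.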

How the data were processed

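Poly(A) 3′-seq libraries (QuantSeq REV) of IMR-32 cells were trimmed, mapped to GRCh38 with STAR 2.5.1b, keeping reads with up to 20 positions, downsampled to the smallest library and merged by the authors. MACS2 2.1.1 called peaks once on the merged reads, extended to 100 bp. Each deposited fold is the summit pileup plus 1 over the local background plus 1, so at low background it is below the plain ratio. The deposited p-values and q-values are written as −log10. The deposited score is an integer made from the q-value and was not used otherwise. Depth per library is unknown. The duplicate setting is not given in the sources used here. If 1 read per position and strand was kept, a pileup counts distinct positions, up to 200.

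Pileup and background were recovered from the fold and the p-value (largest error 0.000168). Summits on chromosomes 1 to 22, X and Y were annotated with GENCODE 44. A peak's host is the longest lncRNA gene at its summit. RN7SL1 matches were found with BLAST 2.17.0 (E-value up to 1e-10) from 300 bp before to 50 bp past the edge. Shares have 95% Wilson intervals and differences 95% Newcombe intervals. Named genes are the 15 hosts with most peaks, the 10 densest hosts of at least 10 kb with at least 5 peaks, the hosts of the 15 highest pileups and genes of 4 lists. The members and lists were chosen with earlier results of these data known. Of the sequences chosen for display, 2 are not reported here. Steps were tested on simulated data. Alternatives changed the q-value, end window, upstream distance, merging, hosts, edge position, adenine minimum and hexamers. Python 3.11.15, numpy 2.4.6, pandas 2.3.3, scipy 1.17.1, pysam 0.24.0, samtools 1.23.1 and matplotlib 3.10.9 were used.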

Additional observations from a re-analysis of the deposited data

How the results depend on the processing

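No paired analysis was possible because all libraries were merged before peaks were called. The A-rich share of the intronic lncRNA peaks stayed below that of protein-coding introns, with an interval that excludes 0, under 14 of 15 alternatives. The long adenine stretch of the study's methods was not among these. Introns of single transcripts, 1 of the 14, left the difference unchanged. Where only the lncRNA side was limited, against all protein-coding intronic peaks, the difference was -8.10 points with hosts that had a terminal peak and -26.7 points with 1 peak per host. With both sides limited, settings added after seeing the data, it was -8.78 and -21.0 points. The terminal-peak limit was looser for protein-coding genes, where any listed peak in an end window counted. It kept 85920 of the 90164 protein-coding intronic peaks and 4484 of the 8100 intronic lncRNA peaks. The difference reversed to 0.970 points when the summit, which lies inside the interval, was read in place of its edge. There the A-rich share was 4.34%, the core share 5.07% and the A-poor share with a core signal 4.60%.

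With only peaks at a −log10 q-value of 5 or more there were 5369 peaks, a core share of 20.6%, an A-poor core share of 13.4%, a median pileup of 10, a density ratio of 0.231 and 18.3% of eligible genes with a peak. At 20 or more these were 225, 28.4%, 20.2%, 24, 0.370 and 1.76%, and the A-rich share was 43.3%. With 1 peak per host the A-rich share was 45.7%, the core share 21.3% and the A-poor core share 15.2%. Without the 10 hosts with most peaks the A-rich share was 54.8% and the density ratio 0.218. With 10 kb upstream of protein-coding starts left out the A-poor core share was 11.9% and the density ratio 0.229. At least 6 A gave an A-rich share of 64.9% and an A-poor core share of 10.8%, and at least 8 A gave 43.0% and 15.1%. Any of the 12 hexamers within 100 bp gave 54.0% with a signal and 26.7% A-poor with one. Hosts with a terminal peak alone, an alternative chosen after seeing the data, held 4484 peaks, 64.3% A-rich and 20.2% with a core signal. Leaving out the 4 bins of chromosome 2, also chosen after seeing the data, left 7851 peaks and kept the other 5 results it was run on within their intervals or, for the difference, on the same side of 0. The wider end window and merging did the same for all results but the number of peaks, which was 7613 and 8081. Introns of single transcripts left all results unchanged. All 8100 summits already lay in such an intron, so this setting tested little. With no replicates, the spread between libraries limits every value in a way the list cannot show.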

Other observations

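Some peaks stood high over their background in genes that no list or rule named and that were chosen after their values were seen. MEF2C-AS1, antisense to the neuronal transcription factor gene MEF2C, held a peak of 25 reads and 20.6-fold, 92.3 kb from its start, with 8 A in the next 10 bases. In ENSG00000230286 a peak of 32 reads and 23.6-fold was A-poor on the host strand and had 8 A of 10 on the opposite strand, beside an RN7SL1 match in the opposite orientation. ENSG00000250820 held a peak of 30 reads and 21.1-fold with a core signal and 0 A of 10 past the edge, 1.12 kb from THOC3. FAM157C on chromosome 16 held a peak of 31 reads and 23.5-fold that was A-poor with no core signal.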
